A study of Drosophila melanogaster with 23 samples.

Results

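The Cpr genes are the Drosophila melanogaster cuticle protein genes named for the Rebers and Riddiford consensus. They were taken here as every gene symbol that begins with Cpr followed by a digit. There were 70 such genes, each present in both deposited count tables, which list 17103 genes (w1118) and 17104 genes (attp2 and LamC RNAi). All 70 matched a current gene of the BDGP6.54 annotation, and no Cpr symbol of that annotation was missing from the tables. The proteins range from 93 to 1231 amino acids, with a median of 179.5.

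The insect cuticle is built of chitin fibres and of proteins that bind them. Most of these proteins carry the Rebers and Riddiford consensus, a stretch of sequence through which they bind chitin, and they are secreted by the epidermis and by other cells that lay down cuticle, such as those of the trachea and the foregut and hindgut. Different genes of the family are used at different moults and in different body regions, and many lie in clusters of neighbouring genes. The individual roles of most members are not known, so the genes below are ordered by cluster and by level.

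The 23 libraries are bulk RNA-seq of dissected hearts. They fall into 5 groups: the control strain w1118 at 1 week (n = 4) and at 5 weeks (n = 4) of age, the control strain attp2 at 1 week (n = 5) and at 5 weeks (n = 5), and flies labelled LamC iR on the attp2 strain at 1 week (n = 5), in which RNAi against the nuclear envelope gene LamC (Lamin C) was driven by the promoter of the heart gene Hand. The study's stated questions were which genes change with age in w1118, whether both control strains share such changes, and which genes aging and LamC RNAi have in common. The labels give neither the sex of the flies nor the number of hearts per library, and nothing in them says that the libraries of a group were made from different animals. The p-values therefore reflect the spread among libraries, part of it possibly technical. Whether the attp2 controls carried a Hand driver is not stated either.

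Total counts were 21.8 to 90.0 M (M, mega) per library, of which the Cpr genes took 3429 to 14214 counts. A count of 3, taken as the detection limit for counting error only, equals 0.0333 to 0.138 CPM (counts scaled to a library of 1 M) on these totals. Levels below are CPM on totals scaled by the TMM method, and were scaled separately in each table, so strain and table cannot be told apart. Hand was at 182 to 657 CPM and tin, the transcription factor gene that specifies the heart, at 3.36 to 12.5 CPM. Markers of other tissues were also present, with Cyp4g1, an oenocyte enzyme gene, at 63297 to 190707 CPM and a list of 15 haemocyte genes summing to 3143 to 10898 CPM. In 4 libraries a list of 14 gut genes summed to 724 to 17309 CPM (attp2 at 1 week, library 3; attp2 at 5 weeks, libraries 3 and 4; LamC RNAi, library 3), against 58.3 to 292 CPM in the other 19. LamC itself averaged 171 ± 33.6 CPM in attp2 at 1 week and 149 ± 42.4 CPM in the libraries labelled LamC RNAi (SD, n = 5 each), and the ranges overlapped, so the transcript does not check that label.

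Few Cpr genes were expressed in these hearts. Of the 70 genes, 10 had no count in any library, which at the detection limit above allows up to 0.0333 to 0.138 CPM per library, and 5 of these belong to the 7 genes of the Cpr65A cluster (Cpr65Av, Cpr65Aw, Cpr65Ax1, Cpr65Ax2 and Cpr65Az). The other 5 were Cpr5C, Cpr12A, Cpr47Ed, Cpr49Ad and Cpr57A. A further 45 genes had counts but stayed under a mean of 1 CPM in every group, 11 reached a mean of 1 to under 10 CPM in at least 1 group, and 4 reached 10 CPM or more (Cpr49Ac, Cpr49Ab, Cpr49Ae and Cpr67B). Only 17 genes had counts in all 23 libraries. Cpr57A shares all of its 1488 exon bases with Obp57d on the same strand, and how reads of such a pair were assigned is not stated in the labels. The absence of counts for Cpr57A therefore sets no upper limit on its level.

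The filter on low counts kept 22 Cpr genes for testing in w1118 and 21 in the attp2 table, 19 of them in both. The 46 genes kept in neither table never exceeded 0.996 CPM in a single library. By chromosome arm, genes kept in at least 1 table were 8 of 21 on 2R, 10 of 35 on 3L, 4 of 5 on 3R, 2 of 4 on X and 0 of 5 on 2L. The kept genes encode proteins with a median of 259.5 amino acids, against 149.5 for those not kept, but gene length itself raises counts. Of the genes outside the tests, the highest single values in w1118 were those of Cpr64Ac (0.753 CPM), Cpr65Au (0.476 CPM) and Cpr64Aa (0.394 CPM), all at 1 week. In the attp2 table they were those of Cpr76Bb (0.996 CPM in 1 LamC RNAi library), Cpr11A (0.978 CPM) and Cpr47Eb (0.370 CPM).

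**Figure D1:**
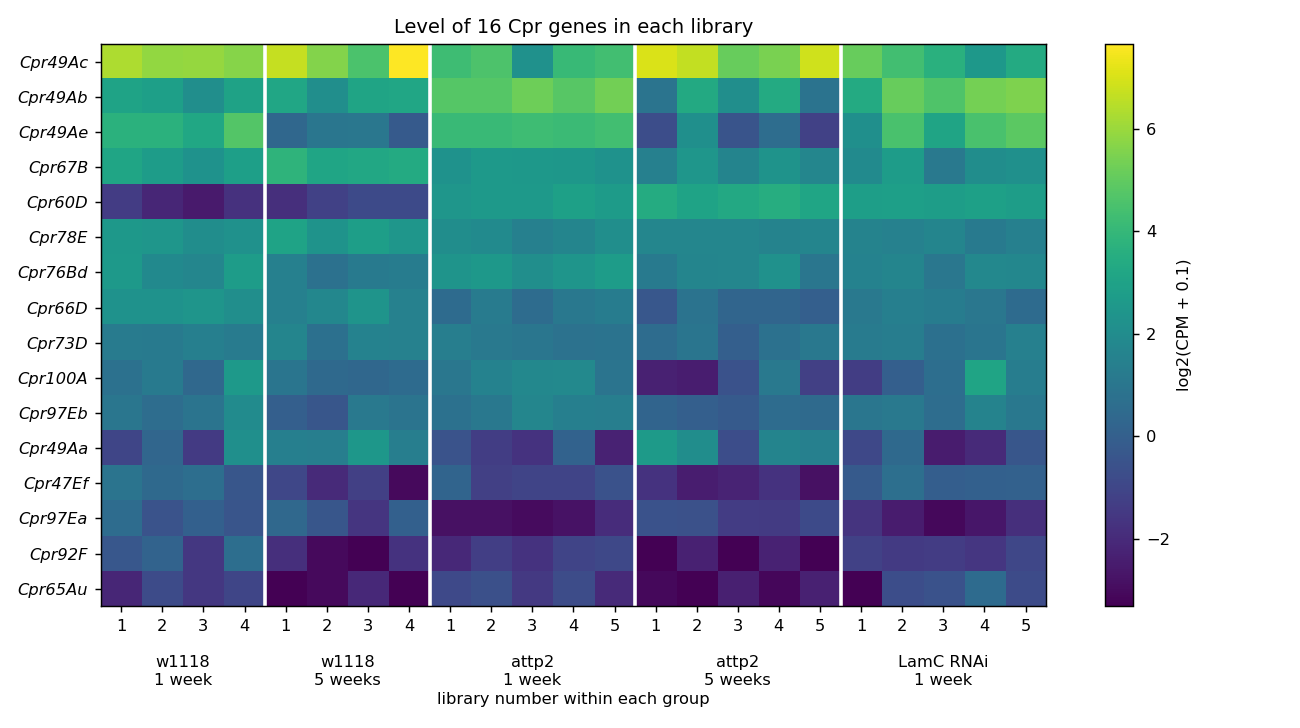
Heat map of 16 Cpr genes, the 10 with the highest mean CPM and those past adjusted p 0.05 in a comparison, in each of the 23 libraries, coloured by log2(CPM + 0.1). Columns are libraries grouped by strain, age and RNAi, and rows are ordered by mean level, from Cpr49Ac (mean 52.9 CPM) down to Cpr65Au (0.276 CPM).

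In w1118 the Cpr transcripts summed to 122 ± 17.3 CPM in young hearts and 140.2 ± 79.4 CPM in old hearts (SD, n = 4 each). In attp2 they summed to 102 ± 8.70 CPM at 1 week and 124 ± 42.0 CPM at 5 weeks, and in LamC RNAi to 97.1 ± 20.9 CPM (SD, n = 5 each). The ranges of old and young libraries overlapped in both strains. One gene, Cpr49Ac, made up 39.2 to 58.3% of the sum in w1118 at 1 week and 31.1 to 82.3% at 5 weeks. Its share in attp2 was 4.95 to 23% at 1 week and 46.6 to 79.3% at 5 weeks, with no overlap. With Cpr49Ac left out, the sum in attp2 was 84.9 ± 7.20 CPM at 1 week, 38.9 ± 9.12 CPM at 5 weeks and 80.7 ± 27.4 CPM in LamC RNAi, and in w1118 it was 59.8 ± 15.2 CPM at 1 week and 46.0 ± 8.54 CPM at 5 weeks. The composition of the Cpr transcripts thus differed between ages in attp2 while the total overlapped.

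To compare genes with each other, levels were divided by exon length (CPM per kb). In w1118 the order was led at both ages by Cpr49Ac, with 29.5 ± 5.80 CPM per kb at 1 week and 44.5 ± 37.4 at 5 weeks. Cpr49Ae (12.9 ± 6.42), Cpr78E (10.6 ± 1.56) and Cpr49Ab (8.05 ± 2.10 CPM per kb) came next at 1 week, and their ranges overlapped from each to the next. In attp2 at 1 week the order began with Cpr49Ab (37.9 ± 7.53), Cpr49Ae (15.5 ± 0.925) and Cpr60D (9.42 ± 1.23 CPM per kb), whose ranges did not overlap. Cpr49Ac, Cpr78E and Cpr67B followed, at 7.96 ± 3.46, 7.65 ± 1.41 and 5.27 ± 0.598 CPM per kb, with overlap from each gene to the next. At 5 weeks in attp2 Cpr49Ac led with 40.1 ± 20.4 CPM per kb, ahead of Cpr60D at 14.6 ± 1.98, whose range it overlapped, and Cpr49Ae had moved to 8th place with 1.21 ± 1.38. By group mean, LamC RNAi had the same first 6 genes as attp2 at 1 week in the same order. They ran from Cpr49Ab (36.6 ± 16.7) to Cpr67B (4.14 ± 1.63 CPM per kb). Their ranges overlapped from each gene to the next, as with Cpr49Ab (12.2 to 54.5) and Cpr49Ae (3.65 to 25.3), so single libraries need not follow this order.

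The genes of the 49A cluster gave most of the Cpr transcripts. The cluster holds 8 genes within 38.5 kb on chromosome arm 2R (bases 12376626 to 12415170 of BDGP6.54), 7 of them on the plus strand and Cpr49Ad on the minus strand. Cpr49Aa, Cpr49Ab, Cpr49Ac and Cpr49Ae were kept for testing. Of their 4 neighbours, Cpr49Ad had no count and Cpr49Af, Cpr49Ag and Cpr49Ah had 3, 15 and 3 counts over all libraries. Expressed and silent genes are interleaved: the gap between Cpr49Ac and Cpr49Ad is 0.838 kb, and that between Cpr49Ae and Cpr49Af is 0.823 kb. None of the 8 genes overlaps another annotated gene.

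Cpr49Ae (2R, bases 12402216 to 12405108, encoding 134 amino acids) was lower in old hearts of both strains. In w1118 its level was 12.8, 12.7, 9.33 and 26.5 CPM in the 4 libraries at 1 week and 1.18, 1.87, 1.93 and 0.760 CPM in the 4 at 5 weeks. In attp2 it was 17.3, 17.5, 19.0, 18.1 and 19.9 CPM at 1 week and 0.510, 4.27, 0.618, 1.43 and 0.337 CPM at 5 weeks. Every old library lay below every young library of its strain, and the 5 young attp2 libraries were close to each other. Cpr49Ae fell by 3.39 ± 0.39 on the log2 scale in w1118 (SE; edgeR quasi-likelihood test, adjusted p = 0.00125) and fell by 3.68 ± 0.69 in attp2 (adjusted p = 0.00225). The call held without any 1 library in either strain (adjusted p at most 0.00771 in w1118 and 0.00759 in attp2), and without the 4 libraries with gut transcripts the attp2 value was −3.45 (adjusted p = 0.0206). In a bulk sample, fewer cells that express a gene and less of its RNA per cell cannot be told apart.

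Cpr49Ab (2R, bases 12378440 to 12379396, 259 amino acids) fell with age in attp2 and showed no change past the threshold in w1118. Its attp2 levels were 27.4, 27.2, 37.9, 28.3 and 40.5 CPM at 1 week and 1.78, 10.1, 4.19, 10.4 and 1.73 CPM at 5 weeks. The w1118 levels were 8.16, 7.14, 4.26 and 7.88 CPM at 1 week and 9.0, 4.22, 8.43 and 8.94 CPM at 5 weeks. The old and young attp2 libraries did not overlap, whereas the w1118 libraries of both ages covered the same range. The log2 change was −2.52 ± 0.53 in attp2 (edgeR, adjusted p = 0.00463), held without any 1 library, and 0.16 ± 0.27 in w1118 (adjusted p = 0.772).

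Cpr49Ac (2R, bases 12386666 to 12390057, 324 amino acids) changed in the other direction in attp2. Its attp2 levels were 19.0, 24.0, 4.60, 16.7 and 19.9 CPM at 1 week and 131, 100.4, 34.6, 43.7 and 115 CPM at 5 weeks, and its w1118 levels were 79.9, 58.8, 60.3 and 51.0 CPM at 1 week and 103, 48.7, 23 and 202 CPM at 5 weeks. All old attp2 libraries lay above all young ones, and the lowest library of each age was library 3, which is among the 4 with gut transcripts. In w1118 the old libraries spanned both the lowest and the highest value. Cpr49Ac rose by 2.33 ± 0.54 on the log2 scale in attp2 (edgeR, adjusted p = 0.00780), and by 2.53 without the 4 libraries with gut transcripts (adjusted p = 0.00478). In w1118 the change was 0.59 ± 0.52 (adjusted p = 0.510) and became −0.11 without library 4 of the 5-week group.

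Cpr49Aa (2R, bases 12376626 to 12377378, 144 amino acids) was also higher in old attp2 hearts, with more spread. Its levels were 0.596, 0.301, 0.201, 1.00 and 0.108 CPM at 1 week and 6.20, 4.10, 0.502, 3.00 and 2.67 CPM at 5 weeks. In w1118 they were 0.394, 1.15, 0.265 and 4.39 CPM at 1 week and 2.55, 2.47, 5.47 and 2.53 CPM at 5 weeks. In attp2 the groups overlapped through library 3 at 5 weeks, and in w1118 through library 4 at 1 week. Cpr49Aa rose by 2.90 ± 0.81 on the log2 scale in attp2 (edgeR, adjusted p = 0.0220), but the adjusted p was 0.0501 to 0.0573 without library 2, 3 or 5 at 1 week or library 1 at 5 weeks. In w1118 the change was 1.11 ± 0.75 (adjusted p = 0.384), and 2.44 without library 4 at 1 week (adjusted p = 0.0284).

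**Figure D2:**
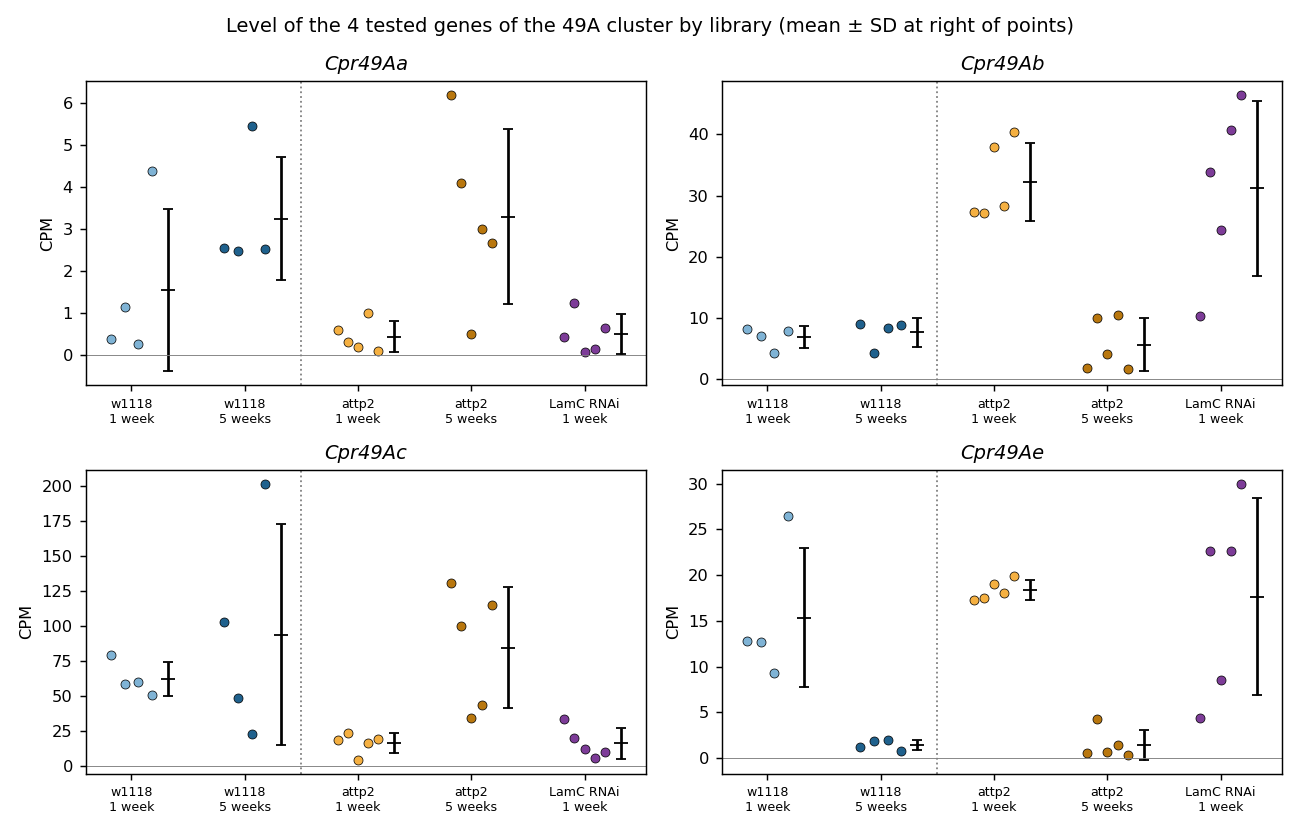
CPM of Cpr49Aa, Cpr49Ab, Cpr49Ac and Cpr49Ae in each library of the 5 groups, with the mean and SD to the right of the points; a dotted line separates the 2 count tables. Old attp2 libraries lie below young ones for Cpr49Ab and Cpr49Ae and above them for Cpr49Ac.

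Within 1 cluster, then, attp2 hearts gave 2 genes that rose with age and 2 that fell, and the directions of the 4 tested genes alternated along the chromosome: Cpr49Aa rose, Cpr49Ab fell, Cpr49Ac rose and Cpr49Ae fell. Cpr49Aa and Cpr49Ab, which moved in opposite directions in attp2, are separated by 1.061 kb. In attp2 at 5 weeks the highest library of Cpr49Ae was library 2, which was also among the 2 highest for Cpr49Ab, and libraries 1 and 5 were the 2 lowest for both genes and the 2 highest for Cpr49Ac.

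**Figure D3:**
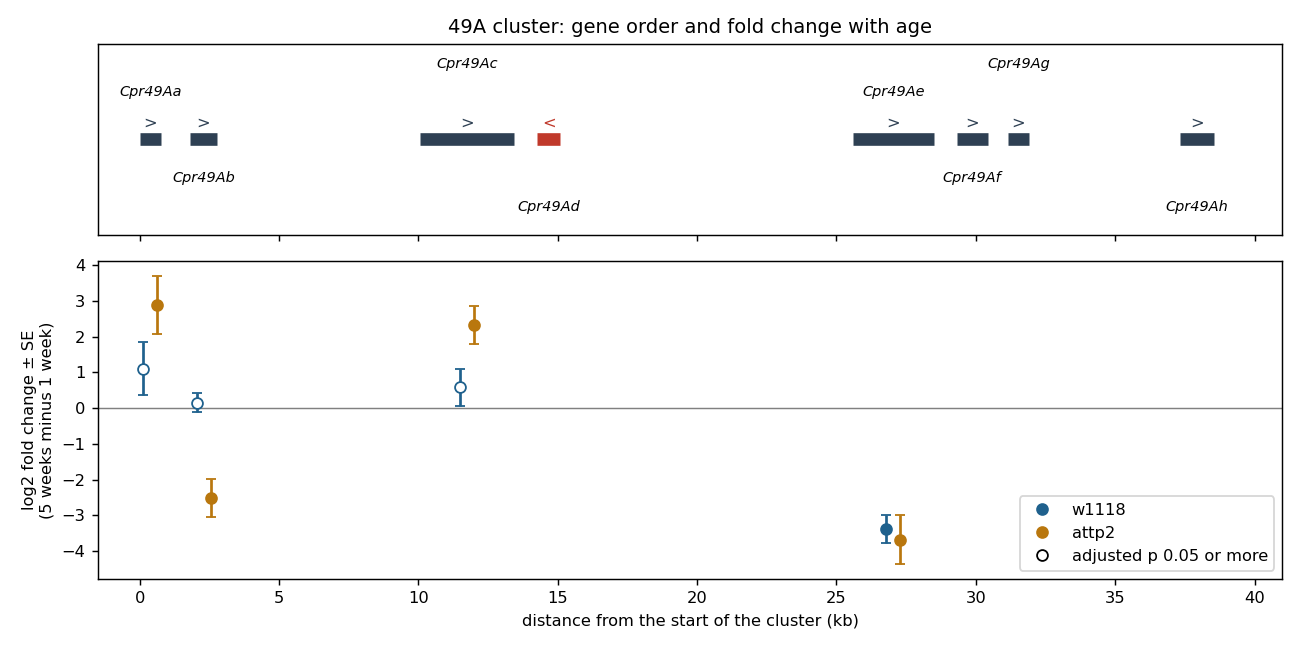
Upper panel, the 8 genes of the 49A cluster by distance from its start in kb (blue, plus strand; red, minus strand); lower panel, log2 fold change (5 weeks minus 1 week) ± SE of the 4 tested genes, filled where the edgeR adjusted p is under 0.05. Cpr49Ae is lower with age in both strains, at −3.39 in w1118 and −3.68 in attp2, and the other 3 genes pass the threshold in attp2 alone.

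Outside the cluster, Cpr76Bd and Cpr47Ef were lower in old hearts of both strains. Cpr76Bd (3L, bases 19532743 to 19538289), the longest member with 1231 amino acids, was at 6.11, 3.63, 3.16 and 6.69 CPM in the young and 2.64, 1.60, 2.13 and 2.37 CPM in the old w1118 libraries. In attp2 it was at 4.97, 5.71, 4.20, 5.13 and 6.69 CPM at 1 week and 2.11, 3.10, 3.21, 4.62 and 1.90 CPM at 5 weeks. The w1118 groups did not overlap, and in attp2 library 4 at 5 weeks lay above the lowest young library. Cpr76Bd fell by 1.17 ± 0.29 in w1118 (edgeR, adjusted p = 0.0341) and fell by 0.84 ± 0.24 in attp2 (adjusted p = 0.0234) on the log2 scale. These calls were near the threshold: in w1118 the adjusted p was 0.0540 to 0.0964 without any 1 library other than library 3 at 1 week, and in attp2 it was 0.0512 to 0.0619 without library 2 or 5 at 1 week or library 1 or 5 at 5 weeks. Without the 4 libraries with gut transcripts the attp2 change was −1.25 (adjusted p = 0.00235).

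Cpr47Ef (2R, bases 11266915 to 11272575, 612 amino acids) was at 1.79, 1.23, 1.48 and 0.672 CPM in the young and 0.409, 0.145, 0.325 and 0.0224 CPM in the old w1118 libraries, the last being 1 count. Its attp2 levels were 1.05, 0.329, 0.377, 0.373 and 0.577 CPM at 1 week and 0.204, 0.0843, 0.116, 0.208 and 0.0409 CPM at 5 weeks. Old and young libraries did not overlap in either strain, and all old libraries held 16 counts or fewer. It fell by 2.58 ± 0.68 on the log2 scale in w1118 (edgeR, adjusted p = 0.0423) and fell by 2.04 ± 0.46 in attp2 (adjusted p = 0.00678). The attp2 call held without any 1 library. The w1118 call was lost, with adjusted p from 0.0521 to 0.111, without library 1, 2 or 3 of either age.

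Of the remaining genes called with age in attp2, Cpr60D and Cpr97Ea rose and Cpr97Eb, Cpr92F and Cpr65Au fell. Cpr60D (2R, bases 24662682 to 24663406), the shortest member with 93 amino acids, was at 5.32, 6.09, 5.96, 7.55 and 6.47 CPM at 1 week and 10.7, 8.20, 9.87, 11.3 and 8.57 CPM at 5 weeks. The groups did not overlap, and the log2 change of 0.63 ± 0.11 had the lowest adjusted p of any Cpr gene in attp2 (edgeR, adjusted p = 0.00162). In w1118 the same gene was at 0.0757 to 0.287 CPM at 1 week and 0.182 to 0.447 CPM at 5 weeks, with at most 22 counts in a library and a log2 change of 1.06 ± 0.59 (adjusted p = 0.287). The 2 tables were scaled separately and strain cannot be told apart from table, so this difference in level was not tested.

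The neighbours Cpr97Ea and Cpr97Eb on 3R (bases 27083130 to 27087778 and 27089704 to 27091130) moved in opposite directions in attp2. Cpr97Ea was at 0.0397, 0.0411, 0.0252, 0.0466 and 0.162 CPM at 1 week and 0.578, 0.557, 0.290, 0.274 and 0.460 CPM at 5 weeks. Cpr97Eb was at 1.61, 2.00, 3.14, 2.54 and 2.51 CPM at 1 week and 1.07, 0.911, 0.753, 1.38 and 1.28 CPM at 5 weeks. Neither gene's groups overlapped, although the young Cpr97Ea values rest on 1 to 9 counts. The filter kept Cpr97Ea through its 5-week libraries, where it is high, so its lack of overlap is no separate support. Without a filter edgeR gave an adjusted p of 0.0123 for Cpr97Ea with age in attp2. Cpr97Ea rose by 2.72 ± 0.62 (edgeR, adjusted p = 0.00737) and Cpr97Eb fell by 1.13 ± 0.24 (adjusted p = 0.00538) on the log2 scale, and both calls held without any 1 library. In w1118 the changes were −0.25 ± 0.54 (adjusted p = 0.816) and −0.69 ± 0.45 (adjusted p = 0.363).

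Cpr92F (3R, bases 20669571 to 20672821) was at 0.139, 0.315, 0.201, 0.373 and 0.415 CPM in attp2 at 1 week and had 0, 6, 0, 8 and 0 counts at 5 weeks. It fell by 2.75 ± 0.84 on the log2 scale (edgeR, adjusted p = 0.0340). The adjusted p rose to between 0.0613 and 0.0744 without library 2, 4 or 5 at 1 week or library 1, 3 or 5 at 5 weeks, and to 0.0547 without the 4 libraries with gut transcripts. In w1118 it was at 0.681, 1.04, 0.246 and 1.47 CPM at 1 week and had 4, 1, 0 and 9 counts at 5 weeks, with no overlap, and a log2 change of −3.16 ± 0.94 (edgeR, adjusted p = 0.0646), which DESeq2 called (−3.19, adjusted p = 0.00588). Cpr65Au (3L, bases 6131242 to 6132109) had 22, 40, 10, 21 and 8 counts in attp2 at 1 week and 1, 0, 5, 1 and 10 counts at 5 weeks. It fell by 2.95 ± 0.99 on the log2 scale (edgeR, adjusted p = 0.0497), and the call was lost without any 1 of the 10 libraries (adjusted p 0.0567 to 0.112). Its exons share 491 bases with the antisense transcript asRNA:CR46005, and whether counting used the strand is not stated, so reads of the pair may not have been separated.

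**Figure D4:**
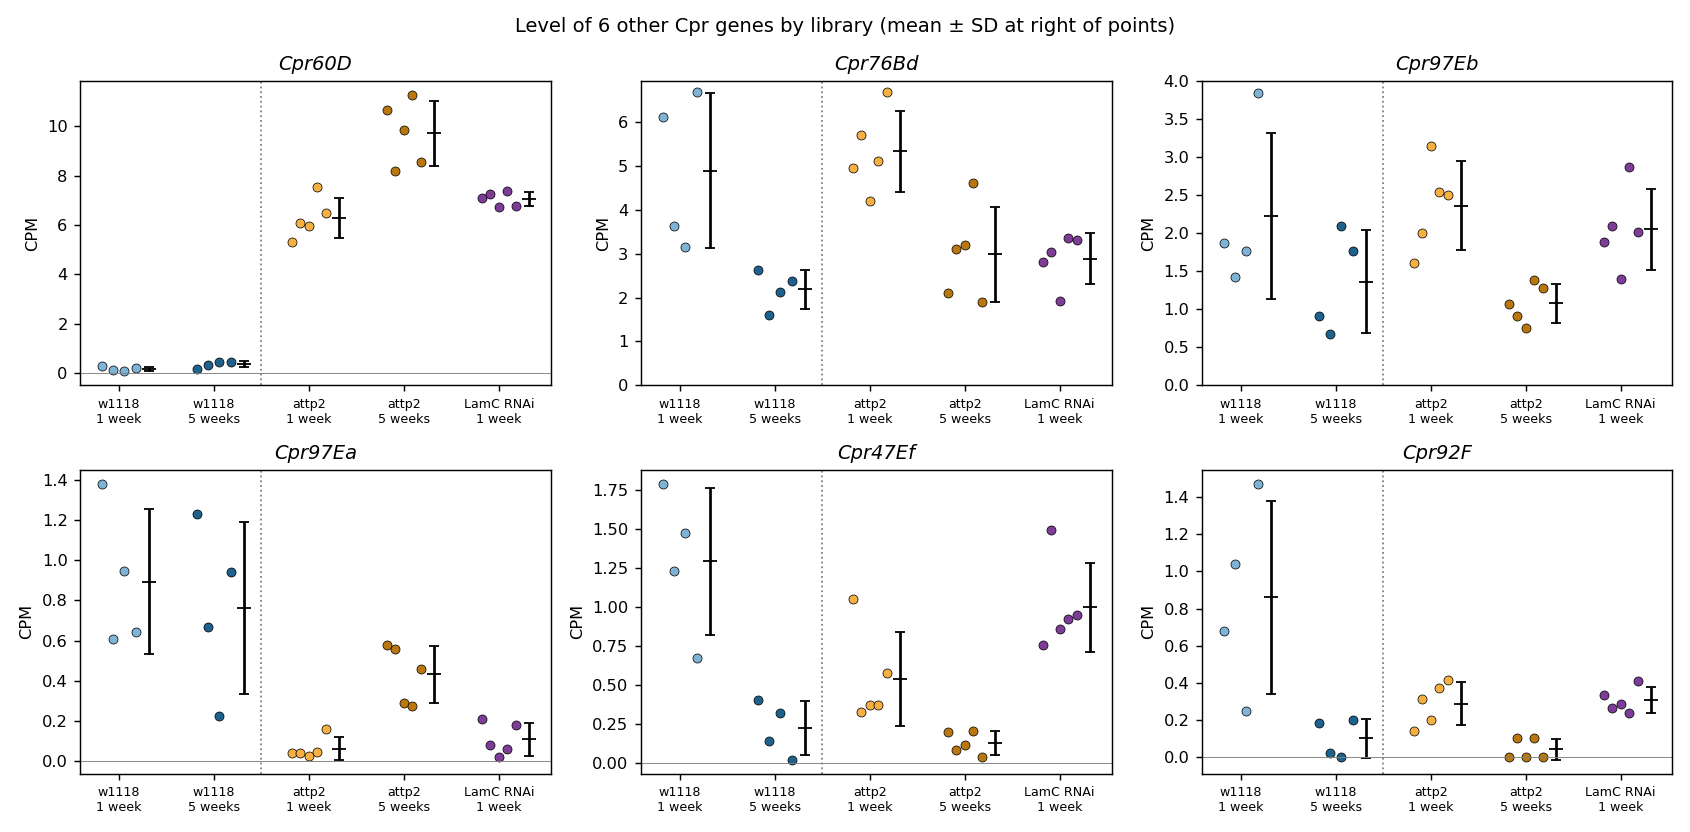
CPM of Cpr60D, Cpr76Bd, Cpr97Eb, Cpr97Ea, Cpr47Ef and Cpr92F in each library of the 5 groups, with the mean and SD to the right of the points; a dotted line separates the 2 count tables. Cpr60D is at 5.32 CPM or more in every attp2-table library and at 0.447 CPM or less in every w1118 library.

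In attp2, 11 of the 21 tested Cpr genes (52.4%) passed adjusted p 0.05 in edgeR, 4 higher and 7 lower at 5 weeks. Over all 10044 genes tested in that comparison 20.1% passed, 9.6% higher and 10.5% lower. With only the 2 attp2 groups in the fit, 18 Cpr genes were kept, 4 called higher and 5 lower. Of all 9601 genes in that fit, 1120 were called higher and 1110 lower. The lower calls of Cpr65Au and Cpr92F were absent there, since the filter kept both genes only with the LamC RNAi libraries included. Without a filter on low counts, 4 of 58 Cpr genes were called higher and 5 lower in attp2. Of all 14401 genes in that fit, 792 were higher and 911 lower. In w1118 the unfiltered fit called 0 of 52 Cpr genes higher and 3 lower, and of 13383 genes 450 and 386. The shares therefore depend on the filter. With the filter, the attp2 groups did not overlap for 9 of the 21 genes, against 17.1% of all genes tested. The median log2 change of the 21 was −0.467, and that of all genes tested was 0.032. In w1118, 0 of the 22 tested Cpr genes passed as higher and 3 as lower (13.6% in all), against 5.21% and 3.7% of the 9631 genes tested, or 8.91% in either direction. At an unadjusted p under 0.05 there were 13 of 21 in attp2, against 32.3% of all genes tested, and 6 of 22 in w1118, a share near the 26.1% of all genes. DESeq2, which tested 30 Cpr genes in each strain, called 13 in attp2, against 22.9% of all genes it tested, and 4 in w1118, against 13.7%. The w1118 groups did not overlap for 6 of the 22 genes, against 17.3% of all genes, and the medians were −0.060 and 0.008. The 3 genes called in both strains, Cpr49Ae, Cpr47Ef and Cpr76Bd, were lower at 5 weeks in each. Summed haemocyte markers were also lower at 5 weeks in both strains and summed tracheal markers in attp2, and their part in these counts was not tested. Without single libraries the lower calls numbered 1 to 3 in w1118 (1 without library 1 or 2 of either age) and 4 to 7 in attp2 (4 without library 2 or 5 at 1 week or library 1 or 5 at 5 weeks).

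**Figure D5:**
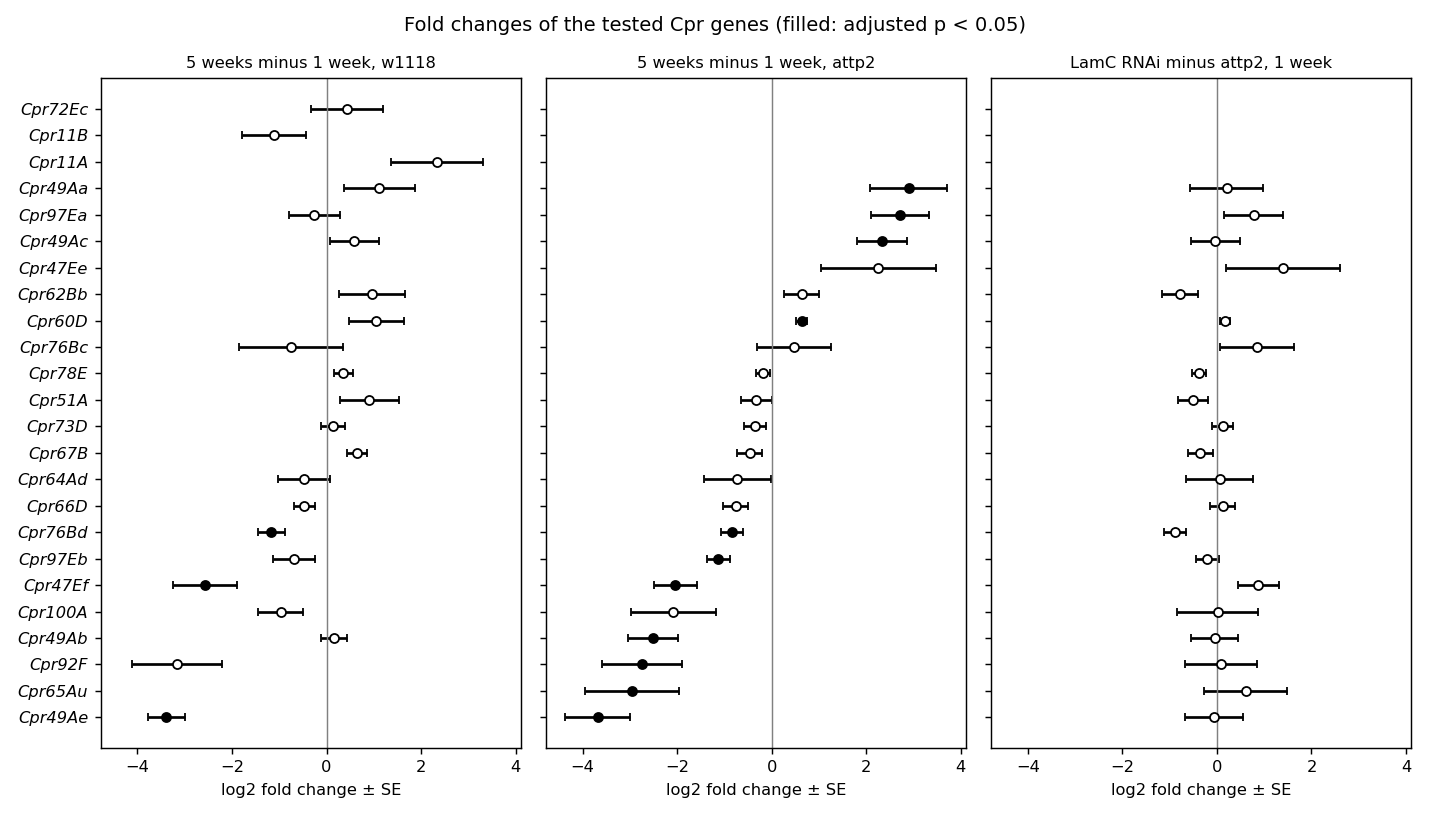
Log2 fold change ± SE of each tested Cpr gene for age in w1118, age in attp2 and LamC RNAi against attp2 at 1 week, ordered by the attp2 age value, filled where the edgeR adjusted p is under 0.05. Filled points number 3 in w1118, 11 in attp2 and 0 for LamC RNAi; a gene without a point was not kept for testing in that table.

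Among the more abundant genes that did not pass in either strain, Cpr67B was at 8.59, 6.68, 4.67 and 7.24 CPM in the young and 14.2, 8.63, 9.45 and 10.3 CPM in the old w1118 libraries. The w1118 groups did not overlap, by a margin of 8.59 against 8.63 CPM, and the log2 change was 0.64 ± 0.21 (edgeR, adjusted p = 0.0890). In attp2 its mean was 5.32 ± 0.604 CPM at 1 week and 3.85 ± 1.23 CPM at 5 weeks, a log2 change of −0.47 ± 0.27 (adjusted p = 0.258). Cpr66D had log2 changes of −0.47 ± 0.23 in w1118 (adjusted p = 0.228) and −0.76 ± 0.27 in attp2 (adjusted p = 0.0582; DESeq2, adjusted p = 0.0262). Cpr78E was at 4.07 to 5.68 CPM in w1118 at 1 week and 4.95 to 8.05 CPM at 5 weeks, and at 2.69 to 4.24 CPM in attp2 at 1 week and 2.94 to 3.21 CPM at 5 weeks, with adjusted p of 0.283 and 0.445. Cpr73D shares 294 exon bases with Ogdh on the opposite strand, so its reads may not be its own; it was at 0.889 to 3.09 CPM in all libraries, with adjusted p of 0.793 and 0.315.

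Cpr100A varied between libraries, and its call depended on the test and on single libraries. Its attp2 levels were 1.95, 2.85, 3.35, 3.47 and 1.79 CPM at 1 week and 0.102, 0.0843, 0.579, 2.05 and 0.327 CPM at 5 weeks. Old library 4, one of the 4 with gut transcripts, lay within the young range and the other 4 old libraries lay below it. The log2 change was −2.09 ± 0.90 (edgeR, adjusted p = 0.124), and DESeq2 called it with all libraries kept (−2.10, adjusted p = 0.0336). In edgeR it was −3.29 without that library (adjusted p = 0.0223) and −3.79 without all 4 libraries with gut transcripts (adjusted p = 0.0310). In w1118 it was −0.97 ± 0.48 (adjusted p = 0.230).

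A strain-by-age term in a fit of the 18 control libraries tested whether aging changed a gene unequally in w1118 and attp2. None of the 24 Cpr genes tested passed adjusted p 0.05 in edgeR, against 0.761% of all 10387 genes tested (0.279% higher and 0.481% lower). An unadjusted p under 0.05 was found for 5 of the 24, against 14.9% of all genes, and DESeq2 called 3 of 24, against 4% of all genes it tested. The 3 were Cpr49Ab (attp2 minus w1118, −2.65 ± 0.66, edgeR adjusted p = 0.0677), Cpr97Ea (2.97 ± 0.76, adjusted p = 0.0749) and Cpr67B (−1.09 ± 0.31, adjusted p = 0.115), with DESeq2 adjusted p of 0.00141, 0.00799 and 0.0270. In edgeR Cpr49Ab passed without library 2 or library 4 of attp2 at 5 weeks (adjusted p = 0.0422 and 0.0355), and Cpr97Ea without library 5 of attp2 at 1 week (adjusted p = 0.0335). The differences between strains were 1.77 ± 0.78 for Cpr49Ac (adjusted p = 0.292), 1.85 ± 1.12 for Cpr49Aa (adjusted p = 0.472) and −0.25 ± 0.80 for Cpr49Ae (adjusted p = 0.918). The calls in attp2 alone are therefore not shown to be particular to attp2.

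The libraries labelled LamC RNAi were compared with attp2 at 1 week, the same 5 control libraries that serve the age comparison in attp2. None of the 21 Cpr genes tested passed adjusted p 0.05 in edgeR, against 2.41% of all 10044 genes (0.866% higher and 1.54% lower). An unadjusted p under 0.05 was found for 2 of the 21, against 19.2% of all genes. DESeq2 called 2 of 24, against 6.31% of all genes it tested: Cpr76Bd and Cpr76Bb, a gene that the filter before edgeR left out and that had no count in attp2 at 1 week. Cpr76Bb had 26, 9, 52, 0 and 0 counts in LamC RNAi, the highest in library 3, one of the 4 with gut transcripts. The median log2 change of the 21 was 0.057, and that of all genes was 0.027. The gene with the lowest adjusted p was Cpr76Bd, at 2.82, 3.05, 1.91, 3.36 and 3.31 CPM in LamC RNAi. All 5 values lay below the lowest attp2 value at 1 week, 4.20 CPM, and Cpr76Bd was the only one of the 21 genes whose groups did not overlap, against 5% of all genes tested. Its log2 change was −0.88 ± 0.24 (edgeR, adjusted p = 0.0697; DESeq2, adjusted p = 0.00936). For comparison, the age change of the same gene in attp2 was −0.84 ± 0.24.

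The 4 tested genes of the 49A cluster were not separated between LamC RNAi and attp2 at 1 week. Cpr49Ae was at 4.33, 22.7, 8.52, 22.6 and 30.0 CPM and Cpr49Ab at 10.4, 33.9, 24.4, 40.7 and 46.5 CPM in LamC RNAi. These libraries spread more widely than the young attp2 libraries, to either side of them, with libraries 1 and 3 low for both genes. The log2 changes were −0.06 ± 0.62 for Cpr49Ae (edgeR, adjusted p = 0.976), −0.05 ± 0.50 for Cpr49Ab (adjusted p = 0.975), −0.03 ± 0.51 for Cpr49Ac (adjusted p = 0.985) and 0.21 ± 0.77 for Cpr49Aa (adjusted p = 0.918). The attp2 age changes of the first 3 genes were −3.68, −2.52 and 2.33. Standard errors of 0.50 to 0.77 on the log2 scale leave moderate changes undetectable. Cpr60D, with little spread, was at 6.74 to 7.37 CPM in LamC RNAi against 5.32 to 7.55 CPM in attp2 at 1 week (log2 change 0.17 ± 0.11, adjusted p = 0.442).

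Other cuticle protein genes were also at low levels. The 27 genes of the Rebers and Riddiford type that carry other names (Lcp, Ccp, Pcp and others) summed to at most 1.75 CPM in any library. Of these, 1 was tested in each count table. The gene tested in the attp2 table, Ccp84Ag, had a mean of 0.233 CPM in attp2 at 1 week. It had no count in any library at 5 weeks (edgeR, adjusted p = 0.00869), where a count of 3 equals 0.0333 to 0.0621 CPM. The filter therefore kept Ccp84Ag through 1-week libraries alone. Its log2 change in LamC RNAi was −0.647 and was not called. The gene tested in w1118 was not called with age (log2 change −0.903). The 26 Tweedle genes, another family of cuticle proteins, summed to 0.792 to 2.50 CPM. TwdlF, 1 of 5 Tweedle genes tested in attp2, fell by 2.11 ± 0.69 on the log2 scale with age (edgeR, adjusted p = 0.0447). Its mean was 0.298 CPM at 1 week and 0.0650 CPM at 5 weeks, near the detection limit. The filter therefore kept TwdlF mainly through 1-week libraries. Of the Tweedle genes, 0 of 4 passed in w1118 (0 at unadjusted p under 0.05, 0 in DESeq2). Over all genes tested, 20.1% passed in attp2 and 8.91% in w1118, so the attp2 count is near the share of all genes.

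Genes of chitin synthesis, binding and breakdown were tested for 27 and 28 of 30 genes found. In w1118, 3 were higher and 0 lower at 5 weeks: the chitinase genes Cht2 (log2 change 1.84 ± 0.19, edgeR adjusted p = 8.4e-04) and Cht10 (2.17 ± 0.38, adjusted p = 0.00818) and the chitinase-like growth factor gene Idgf4 (0.65 ± 0.15, adjusted p = 0.0298). In attp2, 0 were higher and 2 lower: obst-B, which encodes a chitin-binding protein (−1.18 ± 0.23, adjusted p = 0.00310), and the chitin deacetylase gene Cda4 (−1.64 ± 0.46, adjusted p = 0.0218). Over all genes tested, 8.91% passed in w1118 and 20.1% in attp2, so the attp2 share of the list was below that of all genes. The median log2 change of the list was 0.357 in w1118 and −0.180 in attp2. In LamC RNAi 0 of 28 passed in edgeR, 3 had an unadjusted p under 0.05 and DESeq2 called 1.

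Of 10 tested genes of cuticle tanning and melanin, the prophenoloxidase genes PPO1 and PPO2, which are expressed in crystal cells, a haemocyte type, fell in both strains, and both also stand in the haemocyte list below. PPO2 fell by 3.87 ± 0.55 in w1118 (edgeR, adjusted p = 0.00347) and fell by 4.76 ± 0.64 in attp2 (adjusted p = 2.5e-04) on the log2 scale. Tbh, which encodes an enzyme of octopamine synthesis, rose by 1.97 ± 0.47 in attp2 (adjusted p = 0.00985), and the other 7 genes tested there did not pass. Of 16 tested ecdysone-pathway and epidermal regulators of cuticle genes, 1 rose in attp2 with age (ftz-f1, a nuclear receptor gene of the ecdysone cascade, 0.57 ± 0.11, adjusted p = 0.00319) and 4 fell, among them the nuclear receptor gene Hr4 (−1.42 ± 0.29, adjusted p = 0.00372) and the transcription factor gene ab (−0.58 ± 0.12, adjusted p = 0.00340). In w1118 0 of 16 passed in edgeR, with 6 at unadjusted p under 0.05 and 4 called by DESeq2. In LamC RNAi ab alone passed, at −0.59 ± 0.12 (adjusted p = 0.0186). Over all genes tested, 8.91% passed in w1118, 20.1% in attp2 and 2.41% in LamC RNAi. Whether these lists differ from those shares was not tested.

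Among markers of the heart and of other tissues some passed with age as well. Their counts are to be read against the 8.91% of all genes that passed in w1118, the 20.1% in attp2 and the 2.41% in LamC RNAi. The 14 heart genes summed to 416 to 825 CPM over all libraries, and of 12 tested, 3 fell in w1118 (among them tin, by 0.86 ± 0.23 on the log2 scale, edgeR adjusted p = 0.0471), 5 fell in attp2 and 2 in LamC RNAi. The 15 haemocyte genes summed to 6143 to 6435 CPM in young and 3440 to 5241 CPM in old w1118 libraries, and to 6341 to 7621 and 3143 to 4334 CPM in attp2. Of 14 tested, 6 fell and 1 rose in w1118, and 13 fell and 1 rose in attp2. In LamC RNAi the haemocyte sum was 8319 to 10898 CPM, above every attp2 library at 1 week, with 2 genes higher. The 8 tracheal markers summed to 99.8 to 114 CPM in attp2 at 1 week and 72.6 to 89.0 CPM at 5 weeks, without overlap, and 1 of 8, btl, fell. In w1118 the tracheal sums overlapped, at 58.1 to 91.2 and 71.8 to 131 CPM, and in LamC RNAi they were 50.7 to 98.5 CPM, where btl fell too. The 12 oenocyte and fat body markers summed to 202767 to 281506 CPM in attp2 at 1 week and 152344 to 216723 CPM at 5 weeks. These ranges overlapped, and 3 of 12 genes were lower. In w1118 the sums of this list overlapped too, and 1 of 11 was higher. The 9 genes listed for body wall and flight muscle summed to 1526 to 1816 and 1033 to 1449 CPM in w1118. In attp2 they summed to 1399 to 1904 and 1136 to 1325 CPM. With age 2 of 7 were lower in each strain, flr and tnc in w1118 and Tm1 and flr in attp2. In LamC RNAi 1 of 7, tnc, was lower (−1.10 ± 0.25, edgeR adjusted p = 0.0374). As tnc is not specific to muscle, its calls are not read as a change of muscle. Of 9 gut genes tested in w1118, Amy-d rose (adjusted p = 0.0245) and Mal-B1 fell (adjusted p = 0.0340) with age, and 0 of 12 passed in attp2 in edgeR (1 at unadjusted p under 0.05, 0 in DESeq2). Of the lists for nephrocytes, neurons, ovary and male reproductive tract, 1 gene passed with age in each strain, the nephrocyte gene Klf15, which rose. The part of these tissues in the Cpr changes was not tested.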

How the data were processed

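Per the labels' protocols, RNA of dissected hearts was extracted with a miRNeasy kit and made into libraries with the TruSeq Stranded mRNA kit. Cutadapt, STAR, DESeq2 and the dm6 build were used, per the submitters' processing notes; which counter made the counts, with what strand setting and annotation, is not stated there. The authors deposited raw counts per gene symbol for 8 w1118 libraries and for 15 attp2 and LamC RNAi libraries. The log2 values that the authors also deposited equal log2(count / DESeq2 size factor + 1) and were not used further.

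Counts were tested with edgeR 4.0.16 (R 4.3.3) by glmQLFit and glmQLFTest after filterByExpr and TMM scaling, in each table alone, with the 3 groups of the attp2 table in one fit. Benjamini-Hochberg adjustment ran over all genes tested, and genes under adjusted p 0.05 were called. The interaction used the 18 control libraries. CPM are TMM-scaled. Alternatives were DESeq2 1.42.0, its size factors in edgeR, no filter, a filter at 1 CPM, a replicate block, 2-group fits and leaving out libraries. Leaving out the 4 libraries with gut transcripts was chosen after seeing the data. The fitting code was tested on simulated data. No 2 libraries of a group agreed within sampling noise (chi-square per gene at least 62.9).

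The Cpr genes named in full are those under adjusted p 0.05 in a comparison, the 10 with the highest mean CPM, and for each table the 3 untested members with the highest single value; Cpr49Af, Cpr49Ag, Cpr49Ah and the members without counts were named after their values were seen. The members and gene lists were chosen with earlier results of these data known. Coordinates and protein lengths are from the BDGP6.54 annotation, 1-based. Sequences were not analysed here.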

Additional observations from a re-analysis of the deposited data

Results flagged for a closer look

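In 8 of 85 groups of 4 or 5 libraries, over the genes described above, 1 library stood apart from the others; chance gives about 1 in 20. In w1118 at 5 weeks, library 2 was low for Cpr49Ab (4.22 CPM), and library 3 was high for Cpr49Aa (5.47 CPM) and for Cpr65Au (0.142 CPM). In attp2 at 1 week, library 5 was high for Cpr97Ea (0.162 CPM). In attp2 at 5 weeks, library 2 was high for Cpr49Ae (4.27 CPM) and library 4 for Cpr100A (2.05 CPM). In LamC RNAi, library 4 was high for Cpr100A (8.43 CPM) and library 2 for Cpr47Ef (1.49 CPM).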

How the results depend on the processing

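Over the named Cpr genes and their comparisons, DESeq2 size factors in edgeR kept the direction and side of the threshold of all 63 values, a 1 CPM filter of all 48 it left, DESeq2 of 56 of 63 (7 newly called) and no filter of 61 of 63. Without a filter Cpr65Au (adjusted p = 0.0759) and Cpr92F (adjusted p = 0.0623) lost their attp2 calls. DESeq2 called 826 genes higher and 679 lower with age in w1118, 274 and 363 for LamC RNAi (Cpr genes, 1 and 1), and 180 and 225 for the interaction (Cpr genes, 1 and 2). The 1 CPM filter left 13 Cpr genes in attp2, 3 called higher and 4 lower. Of all 8435 genes in that fit, 974 were called higher and 1039 lower. The 2-group LamC RNAi fit called 72 genes lower, 1 of them a Cpr gene. Without the 4 libraries with gut transcripts, LamC RNAi had 38 genes higher and 37 lower, and changes near 0 turned sign for LamC RNAi (Cpr49Ab 0.093, Cpr49Ae 0.13, Cpr66D −0.017, Cpr97Eb 0.036) and for the interaction (Cpr76Bd −0.049, Cpr92F −0.039). The causes were not tested.

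The correlation of deviations between same-numbered libraries was −0.00889 to 0.154 for the 2 ages of w1118. It was −0.138 to 0.848 for the 2 ages of attp2 and 0.0656 to 0.600 for attp2 at 1 week and LamC RNAi. The numbers were not taken as pairs in the main fits, and whether same-numbered attp2 and LamC RNAi libraries shared a batch was not tested. The deposited column letters of the attp2 and LamC RNAi libraries do not always go with these numbers. A pairing by letter was not examined, and the replicate block below used the numbers. With the replicate block, 55 of the 63 values kept direction and side, 5 were newly called, 1 was lost and 2 turned sign. With age, Cpr67B (adjusted p = 0.0403) and Cpr92F (adjusted p = 0.0404) were called in w1118, giving 1 higher call there, Cpr66D (adjusted p = 0.0411) and Cpr100A (−3.06, adjusted p = 0.00563) were called in attp2, and Cpr65Au was lost in attp2 (adjusted p = 0.0678). The interaction called 70 genes higher and 106 lower (Cpr67B among the lower), Cpr100A turned to −0.89 for LamC RNAi and Cpr65Au to 0.12 for the interaction.

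Leaving out single libraries gave ranges, first for w1118 with age: Cpr calls 0 to 1 higher and 1 to 3 lower, all genes 174 to 578 and 124 to 512, Cpr49Ac −0.11 to 0.91, Cpr49Ab −0.016 to 0.36 and Cpr97Ea −0.59 to 0.060. In attp2 the Cpr calls were 3 to 4 higher and 4 to 7 lower, and those of all genes 690 to 985 and 788 to 1123. LamC RNAi gave 47 to 148 genes higher and 56 to 247 lower, with Cpr49Ac −0.48 to 0.19, Cpr49Ab −0.24 to 0.17, Cpr49Ae −0.34 to 0.19, Cpr100A −1.07 to 0.30, Cpr49Aa −0.42 to 0.75 and Cpr92F −0.089 to 0.25. The interaction gave Cpr calls of 0 to 1 in each direction, 6 to 115 genes higher and 5 to 156 lower, Cpr49Ae −1.23 to 0.0057, Cpr65Au −0.83 to 1.91 and Cpr92F −0.28 to 1.19. For genes under about 1 CPM, counting noise limits precision.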
